A study of Mus musculus with 9 samples.

Results

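The genes described here encode 7 complement proteins: the C1q subunits C1qa, C1qb and C1qc, the opsonin precursors C3 and C4b, and the anaphylatoxin receptors C3ar1 and C5ar1. They were taken by symbol from tables of 53465 genes, where each symbol matched 1 row, and 6 of the 7 had enough counts to be tested among 18501 genes. C5ar1, with 4 to 12 counts per library, was the exception.

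RNA was sequenced from whole brains of male C57BL/6 mice, 7 weeks old at the start and with no engineered allele named, in 3 groups of 3 mice. Mice of the diabetic neuropathic pain group (DNP) ate a 60% fat diet for 4 weeks before intraperitoneal streptozotocin, which kills insulin-producing beta cells, was given at 50 mg/kg on 7 days, with saline afterwards. The baclofen group (BAC) had the same diet and streptozotocin and afterwards baclofen, which activates GABA-B receptors, at a daily 8 mg/kg for 7 days, whereas control mice (CON) were normal mice that received saline. Mice entered either diabetic group only if their fasting glucose stayed high and their pain thresholds were lower than in controls, so DNP and BAC share diet, streptozotocin, hyperglycaemia and this selection, and DNP versus CON compares all of these at once.

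Complement is a cascade of plasma and tissue proteins that tags surfaces for removal. In the classical pathway C1q, an assembly of A, B and C chains, binds a target and leads to cleavage of C4 and then of C3, and the fragments attach to the target, while the peptides C3a and C5a signal through C3ar1 and C5ar1. In the brain, C1q is made mainly by microglia, C4b by astrocytes and oligodendrocytes and C3 at low level, mostly by non-neuronal cells, and the cascade is known for marking synapses that microglia then remove.

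In the GRCm38 assembly with GENCODE annotation, the 3 C1q genes lie next to each other on the minus strand of chromosome 4, within 18675 bases. C1qb spans 136880129 to 136886187, C1qc spans 136889804 to 136893065 and C1qa spans 136895917 to 136898803. On the minus strand of chromosome 17, C4b spans 34728380 to 34743882 and C3 spans 57203970 to 57228136. C3ar1 is on chromosome 6 from 122847138 to 122856161 and C5ar1 on chromosome 7 from 16246743 to 16259540, both on the minus strand. All are protein-coding genes, and no other annotated gene overlaps their exons.

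Start regions, from 250 bases before to 50 after the transcript start, were available from RefSeq (GRCm38.p6) for 5 of the 7 genes, without C1qa and C4b. Those of C1qb, C1qc and C3 are shown because C1qb and C1qc had nearly the same profile over the 9 libraries and C3 a different one. Capitals mark, in C1qb and C1qc, the core GAGGAA of PU.1, the myeloid transcription factor, or its reverse complement, and in C3 the letters TTGNGNAA of C/EBP factors, which act in acute-phase responses.
C1qb, chr4:136886151-136886450, minus strand: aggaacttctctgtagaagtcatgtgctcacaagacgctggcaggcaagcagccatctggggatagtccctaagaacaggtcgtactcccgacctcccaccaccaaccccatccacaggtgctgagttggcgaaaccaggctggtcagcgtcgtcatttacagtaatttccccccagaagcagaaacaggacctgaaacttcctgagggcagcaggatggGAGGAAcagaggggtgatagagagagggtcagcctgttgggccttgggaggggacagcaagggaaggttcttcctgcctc
C1qc, chr4:136892865-136893164, minus strand: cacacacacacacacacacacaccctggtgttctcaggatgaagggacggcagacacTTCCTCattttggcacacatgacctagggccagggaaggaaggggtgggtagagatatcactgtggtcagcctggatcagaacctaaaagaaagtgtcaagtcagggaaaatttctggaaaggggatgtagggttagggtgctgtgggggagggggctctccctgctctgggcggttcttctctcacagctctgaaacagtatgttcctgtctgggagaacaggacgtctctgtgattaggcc
C3, chr17:57228087-57228386, minus strand: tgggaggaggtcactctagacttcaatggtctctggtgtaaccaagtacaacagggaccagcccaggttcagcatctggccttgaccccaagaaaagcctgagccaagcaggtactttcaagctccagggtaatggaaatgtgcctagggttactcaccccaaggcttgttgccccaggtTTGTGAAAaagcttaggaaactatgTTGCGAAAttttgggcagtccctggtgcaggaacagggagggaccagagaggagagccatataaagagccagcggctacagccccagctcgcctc
The PU.1 core occurred on either strand in 28.3% of 32851 start regions and in 2 of these 5, C1qb and C1qc. The C/EBP letters occurred in 13.3% of start regions and in C3, with 2 matches, and C5ar1. A STAT motif, TTCNNNGAA, occurred in 8.30% of start regions and in none of the 5, and the NF-kB consensus in 8.46% and in C1qc. No position of these motifs overlapped another in the sequences shown, and a match is only a run of letters.

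The libraries held 13107382 to 16008129 counts each, and the biological coefficient of variation over genes was 36.5%. They also differed in which parts of the brain they held. The summed level of 10 cerebellar markers ranged from 191.8 to 7563 CPM (counts scaled to a common library size), highest in CON replicate 2 and BAC replicate 1. The summed level of 11 markers of brainstem and spinal cord, mostly Hox genes, was 376 to 436 CPM in DNP replicate 1 and BAC replicates 1 and 3 and at most 28.7 CPM in the other 6 libraries. Levels below are CPM after TMM normalization, and levels are compared between genes only as FPKM, which divides by gene length. As these are bulk samples, fewer cells of a type and less RNA per cell cannot be told apart.

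By FPKM in CON mice the order was C1qa (26.3 ± 10.1, SD, n = 3), C1qb (22.4 ± 7.12), C1qc (10.6 ± 4.26), C4b (4.90 ± 0.790), C3ar1 (0.372 ± 0.0904), C3 (0.0776 ± 0.0300) and C5ar1 (0.0605 ± 0.0115). The neighbours C1qa and C1qb overlapped within their spread, as did C3 and C5ar1, while C1qb and C1qc, C1qc and C4b, C4b and C3ar1, and C3ar1 and C3 did not. C1q and C4b transcripts were thus the abundant ones in CON, and C3 and the receptors were near the limit of what these libraries measure. In DNP mice C3 averaged 0.391 ± 0.401 FPKM and C3ar1 0.502 ± 0.0387, so C3 overlapped C3ar1 there, and in BAC mice the C3 mean of 0.929 ± 0.771 stood above C3ar1 at 0.523 ± 0.0888 with overlapping libraries.

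**Figure D1:**
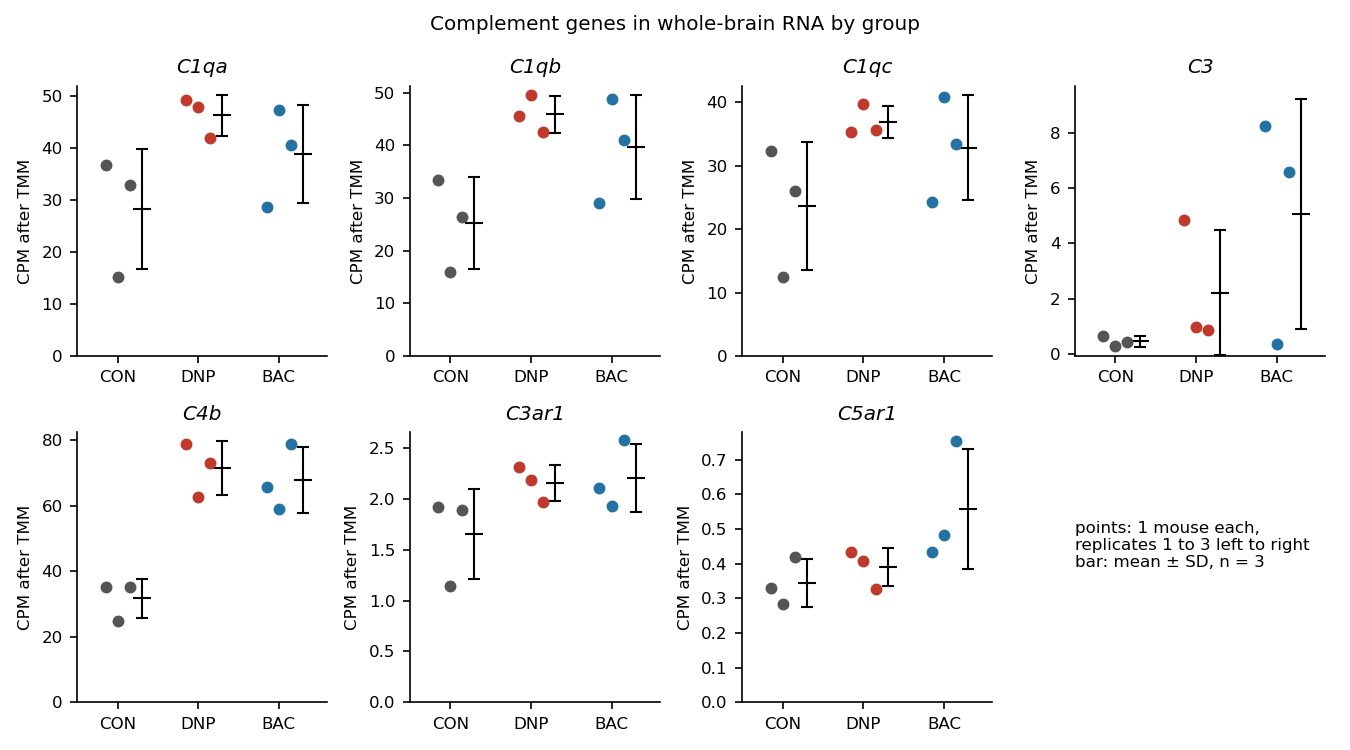
Level of each of the 7 genes in CPM after TMM (y axis) in CON, DNP and BAC; each point is 1 mouse and the bar is the mean ± SD, n = 3. C4b lies between 58.9 and 78.9 CPM in all 6 diabetic mice and at most at 35.3 CPM in CON, the C1q genes have 1 low CON library, and C3 is high in 1 DNP and 2 BAC libraries.

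The C1q genes, which encode the recognition unit of the classical pathway, were higher in every DNP library than in any CON library, by 1.56- to 1.82-fold on average. C1qa was at 36.8, 15.2 and 33.0 CPM in CON replicates 1 to 3, at 49.2, 47.8 and 41.9 CPM in DNP and at 28.7, 47.3 and 40.5 CPM in BAC. C1qb was at 33.4, 15.9 and 26.4 CPM in CON, at 45.6, 49.6 and 42.6 CPM in DNP and at 29.1, 48.8 and 41.1 CPM in BAC. C1qc was at 32.3, 12.5 and 26.1 CPM in CON, at 35.3, 39.8 and 35.7 CPM in DNP and at 24.2, 40.8 and 33.5 CPM in BAC. For all 3 genes CON replicate 2 was lowest of all libraries and BAC replicate 1 was lowest of the diabetic ones. The BAC libraries therefore overlapped both other groups.

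On the log2 scale, DNP exceeded CON by 0.71 (SE 0.32) for C1qa, 0.86 (SE 0.28) for C1qb and 0.64 (SE 0.33) for C1qc. In edgeR's quasi-likelihood test the unadjusted p was 0.0546, 0.0141 and 0.0838, and after Benjamini-Hochberg adjustment over all genes 0.455, 0.360 and 0.495. None of the 3 passed the threshold of 0.05. BAC versus DNP gave -0.25 (95% interval -0.98 to 0.47) for C1qa, -0.21 (-0.85 to 0.42) for C1qb and -0.17 (-0.91 to 0.58) for C1qc, all with adjusted p of 0.998 in edgeR. These intervals run from a fall of nearly the whole DNP versus CON value, or more, to a level above DNP, so a difference between BAC and DNP was not resolved in either direction. BAC versus CON gave 0.46, 0.65 and 0.47, with unadjusted p of 0.188, 0.0462 and 0.184 in edgeR.

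CON replicate 2 carried much of the C1q difference. Without it DNP versus CON was 0.40 for C1qa, 0.62 for C1qb and 0.33 for C1qc. The same library had the highest cerebellar marker sum, and without it and BAC replicate 1, the other library rich in cerebellum, the values were 0.41, 0.62 and 0.34, and BAC versus DNP was -0.07, -0.03 and 0.01. With scores for cerebellum and hindbrain as covariates the DNP versus CON values were -0.35 (SE 0.36), -0.03 (SE 0.26) and -0.42. The sign of the C1q estimates thus changed in that setting. For C1qa and C1qb a difference in either direction was not resolved there (unadjusted p 0.361 and 0.908 in edgeR). C1qc did not pass the threshold there either, as its adjusted p in edgeR, DESeq2 and limma was 0.406 or more in every alternative. In BAC versus CON with these covariates C1qc was -0.37 (SE 0.30, unadjusted p 0.248 in edgeR).

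The 3 subunits kept nearly fixed proportions. Of their summed FPKM, C1qa made up 44.0% ± 2.45 (SD, n = 3) in CON, 42.8% ± 1.70 in DNP and 41.9% ± 0.318 in BAC, and C1qc made up 17.7% ± 0.985, 16.5% ± 0.904 and 17.1% ± 0.246. With each gene's log2 CPM centred on its mean over the 9 libraries, the 3 genes lay within 0.058 to 0.28 of each other in every library, while the library mean moved by over 1 log2 unit. Among 12905 genes with a mean of at least 5 CPM, the genes nearest to C1qa by the root mean square difference of centred log2 CPM were C1qc (0.082), Clvs2 (0.092) and Rnase4 (0.116), against a median of 0.58. For C1qb they were C1qc (0.118), C1qa (0.121) and Ass1 (0.129), and for C1qc they were C1qa, C1qb and Clvs2 (0.126). Each C1q gene thus had another C1q gene as its nearest neighbour over these libraries.

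The summed level of microglial markers was also lowest in CON replicate 2. The 16 markers summed to 404, 212 and 378 CPM in CON, 416, 499 and 405 CPM in DNP and 333, 534 and 382 CPM in BAC. In DNP versus CON 14 of the 16 had higher values, as had 51.4% of all tested genes, and Cx3cr1 and Olfml3 had lower values (-0.30 and -0.43). Siglech, Sall1 and Ctss were higher at an unadjusted p under 0.05 in edgeR, where 5.71% of all genes were, and none of the 16 passed after adjustment, with a median log2 difference of 0.40 against 0.01 over all genes. Per 100 CPM of these markers, the C1q genes together made 25.4, 20.6 and 22.6 CPM in CON, 31.3, 27.5 and 29.6 CPM in DNP and 24.6, 25.6 and 30.2 CPM in BAC. Every DNP library was above every CON library in this ratio too, and BAC overlapped both. Border macrophage markers, 8 genes whose cells also make C1q, summed to 18.1 to 26.6 CPM in CON, 17.3 to 31.3 CPM in DNP and 16.1 to 24.4 CPM in BAC. What part the microglial content of the tissue pieces played in the C1q difference was not tested.

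**Figure D2:**
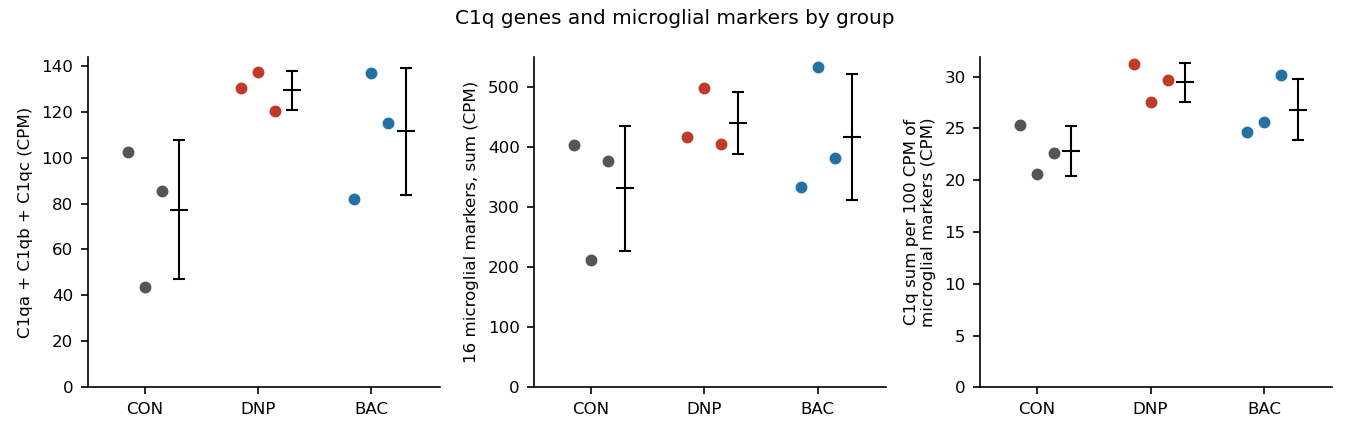
Summed CPM of C1qa, C1qb and C1qc (left), summed CPM of 16 microglial markers (middle) and the first per 100 CPM of the second (right) by group; points are mice and bars are mean ± SD, n = 3. The ratio lies between 20.6 and 25.4 in CON and between 27.5 and 31.3 in DNP, while BAC spans 24.6 to 30.2.

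C4b, the thioester protein cleaved by the C1 complex, showed the clearest separation of the 7 genes. It was at 35.3, 24.8 and 35.1 CPM in CON (mean 31.8 ± 5.99, SD, n = 3), at 78.9, 62.8 and 73.0 CPM in DNP (71.5 ± 8.15) and at 65.7, 58.9 and 78.8 CPM in BAC (67.8 ± 10.1). All 6 diabetic libraries were above all CON libraries, and DNP and BAC overlapped. The counts behind these levels were 349 to 533 in CON and 855 to 1253 in the diabetic mice, so counting error is small beside the spread between libraries.

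DNP exceeded CON 2.25-fold (log2 1.17, SE 0.19, 95% interval 0.74 to 1.60), and C4b was number 11 of 18501 genes by p. The unadjusted p was 0.000189 and the adjusted p 0.294 in edgeR, where no gene passed, and the adjusted p was 8.01e-05 in DESeq2. BAC exceeded CON 2.14-fold (log2 1.09, SE 0.19), with an adjusted p of 0.622 in edgeR and 0.000512 in DESeq2. With both diabetic groups averaged, the difference from CON was 2.19-fold (log2 1.13, SE 0.17, 95% interval 0.75 to 1.52), with an adjusted p of 0.209 in edgeR and 2.73e-06 in DESeq2. C4b passed the threshold by DESeq2 only. BAC versus DNP was -0.08 (95% interval -0.50 to 0.34), which leaves room for a moderate difference either way and does not reach back to the CON level.

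The C4b difference was of like size without the libraries that stood apart. DNP versus CON was 1.03 without the 2 libraries rich in cerebellum, 1.08 without the 3 rich in hindbrain and 1.02 to 1.25 with any 1 library left out. With the cerebellar and hindbrain scores as covariates the C4b difference was smaller. DNP versus CON was then 0.62, against 1.17 without them, and BAC versus CON was 0.49, against 1.09. No gene passed the adjusted threshold in edgeR in that setting.

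Other marker sums went with C4b to differing degrees. The 8 oligodendrocyte markers, among them Mbp, Mag and Mog, summed to 3082, 2732 and 2202 CPM in CON, 9167, 3689 and 7008 CPM in DNP and 6903, 2970 and 9380 CPM in BAC. All 8 had higher values in DNP than in CON, at an unadjusted p under 0.05 in edgeR. Of all tested genes, 51.4% had higher values in DNP than in CON and 5.71% were higher at that level. The CON and BAC ranges of the oligodendrocyte sum overlapped, with BAC replicate 2 below CON replicate 1. The 6 blood markers, mostly globins, summed to 189 to 218 CPM in CON, 477 to 683 CPM in DNP and 471 to 734 CPM in BAC, so they separated the same libraries as C4b did. The 10 astrocyte markers summed to 4495 to 4978 CPM in CON, 3325 to 4805 CPM in DNP and 4787 to 5132 CPM in BAC, and 4 of the 10 were higher and 6 lower in DNP than in CON. Hepatocyte markers, the main source of plasma C4 and C3, summed to at most 1.76 CPM. The part of oligodendrocyte or blood content in the C4b difference was not tested.

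C4a, the neighbouring paralog of C4b on chromosome 17 from 34809092 to 34823464, shares sequence with it. Of the 150-base windows along the 5379-base C4b transcript, 8.26% occur unchanged in C4a, and of the 50-base windows 35.2%. The sources used here do not say how multi-mapped reads were treated, so reads could be split between both. C4a held 52, 34 and 52 counts in CON, 31, 95 and 83 in DNP and 42, 57 and 35 in BAC, and thus 2.72% to 9.40% of the counts of the pair. Adding C4a to C4b gave 1.13 in DNP versus CON and 1.02 in BAC versus CON on the log2 scale. The genes nearest to C4b in profile were Cdh19 (0.152), Carhsp1 (0.156) and 2810468N07Rik (0.177), against a median of 0.65.

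C3, on which all complement pathways converge, was low in most libraries and high in 3. It was at 0.662, 0.285 and 0.421 CPM in CON, from 10, 4 and 6 counts, and at 4.84, 0.954 and 0.852 CPM in DNP, from 67, 14 and 13 counts. In BAC it was at 8.26, 0.345 and 6.60 CPM, from 114, 5 and 105 counts. DNP replicate 1 and BAC replicates 1 and 3 were the high libraries, and they are the 3 with brainstem and spinal cord markers. BAC replicate 2 was within the CON range, whereas DNP replicates 2 and 3 were a little above it.

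On average DNP exceeded CON by 2.25 (95% interval -0.30 to 4.80) on the log2 scale, with an unadjusted p of 0.0767 and an adjusted p of 0.485 in edgeR. BAC versus DNP was 1.20 (SE 0.99, unadjusted p 0.260 in edgeR). BAC versus CON was 3.45 (SE 1.13), with an unadjusted p of 0.0146 and an adjusted p of 0.628 in edgeR. These averages rested on the 3 libraries. Without them DNP versus CON was 0.96, BAC versus DNP -1.36 and BAC versus CON -0.41. With cerebellar and hindbrain scores as covariates DNP versus CON was 0.19 and both diabetic groups versus CON 0.0658, against 2.85 without them. Without DNP replicate 1 alone DNP versus CON was 0.97 and BAC versus DNP 2.48, and without BAC replicate 1 alone BAC versus DNP was 0.66. The nearest profiles to C3 were those of Rassf4 (0.536), Slc17a6, the vesicular glutamate transporter of many brainstem neurons (0.689), and Cd24a (0.720), against a median of 1.64, so no gene was as near to C3 as the C1q genes were to each other. Meninges and choroid plexus also make C3. The summed level of 8 choroid plexus markers was 319 CPM in DNP replicate 1, 1268 CPM in BAC replicate 1 and 31.0 CPM in BAC replicate 3. It was 1394 CPM in DNP replicate 3, 27.3 CPM in DNP replicate 2, 27.8 CPM in BAC replicate 2 and 280 to 523 CPM in CON. The 9 markers of meninges and fibroblasts summed to 698, 754 and 868 CPM in the 3 libraries with high C3. They summed to 857 CPM in BAC replicate 2 and to 340 to 653 CPM in the other 5 libraries. By this sum the high-C3 libraries were among the 4 highest, but Ptgds alone made 626 of the 698 CPM in DNP replicate 1. The mean centred log2 CPM of the 9 markers, which weighs each gene alike, was -0.52 in DNP replicate 1. It was 0.44 and 0.42 in BAC replicates 1 and 3, -0.76 to -0.41 over the DNP libraries and -0.03 to 0.41 in CON. The part of brainstem, spinal cord or meningeal content in the C3 values was not tested.

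**Figure D3:**
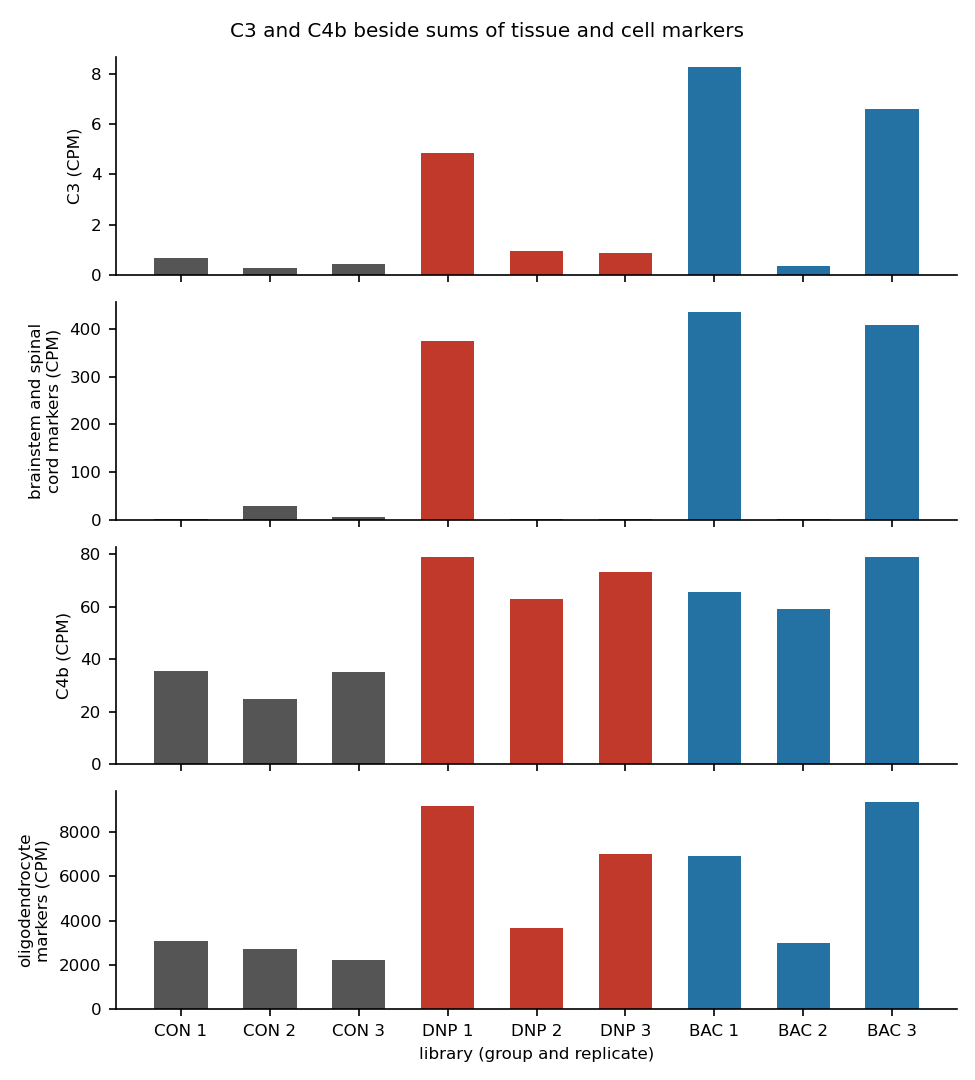
C3, the 11 brainstem and spinal cord markers, C4b and the 8 oligodendrocyte markers (summed CPM after TMM, y axes) in each of the 9 libraries (bars). The 3 libraries with 4.84 to 8.26 CPM of C3 are those with 376 to 436 CPM of brainstem and spinal cord markers, whereas C4b is 58.9 CPM or more in all 6 diabetic libraries.

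The receptor C3ar1, which binds C3a and is found on microglia, was at 0.421, 0.268 and 0.428 FPKM in CON, at 0.538, 0.508 and 0.462 FPKM in DNP and at 0.514, 0.439 and 0.616 FPKM in BAC. All diabetic libraries were above CON, but the counts were only 16 to 41 and the gap between the highest CON and the lowest BAC library was less than 1 count is worth. DNP versus CON was 0.38 (SE 0.29) with an unadjusted p of 0.221 in edgeR, BAC versus CON 0.41 with 0.185 and BAC versus DNP 0.03 with 0.907. Without CON replicate 2, the low library, DNP versus CON was 0.17. Its nearest profiles were those of Ebag9 (0.083), Itgb2 (0.086), the beta chain of complement receptor 3 and another gene of myeloid cells, and Fdps (0.088), against a median of 0.41.

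C5ar1, the C5a receptor of neutrophils and other myeloid cells, held 5, 4 and 6 counts in CON, 6, 6 and 5 in DNP and 6, 7 and 12 in BAC. With no filter on low counts, edgeR gave 0.16 (unadjusted p 0.759) for DNP versus CON, 0.54 (0.232) for BAC versus DNP and 0.70 (0.135) for BAC versus CON. A difference was not detectable at this depth. The 10 neutrophil markers summed to 0.927 to 3.30 CPM in CON, 1.51 to 19.4 CPM in DNP and 2.89 to 8.12 CPM in BAC, and DNP replicate 1, with the highest sum, had only 6 counts of C5ar1.

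Of the 6 tested genes, 0 passed the adjusted threshold in edgeR in any comparison, and of all tested genes 0% passed when DNP was set against CON, 0% in BAC versus DNP, 0% in BAC versus CON and 0% in both diabetic groups versus CON. By limma on log2 FPKM the count was also 0. In DESeq2, C4b alone passed in DNP versus CON, where 1.85% of genes did, in BAC versus CON, where 0.552% did, and in both diabetic groups versus CON, where 2.05% did. In BAC versus DNP none of the 6 passed in DESeq2, where 0.0379% of genes did.

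All 6 tested genes were higher in every DNP than in every CON library, which held for 9.58% of all tested genes, and their median log2 difference was 0.79 against 0.01 over all genes. At an unadjusted p under 0.05 in edgeR, C1qb and C4b were higher in DNP versus CON, where 5.71% of genes were. In BAC versus DNP none of the 6 was higher at that level, where 1.37% of genes were, and none had BAC above DNP in every library, where 3.39% did. In BAC versus CON, C1qb, C3 and C4b were higher at that level, where 4.46% of genes were, and C4b and C3ar1 did not overlap, where 7.19% did not. With both diabetic groups against CON, C1qb, C3 and C4b were higher at that level, where 6.42% of genes were, and C4b and C3ar1 did not overlap, where 3.81% did not. The comparisons share libraries: the DNP libraries enter both the first and the second contrast, so a high DNP value raises one and lowers the other.

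**Figure D4:**
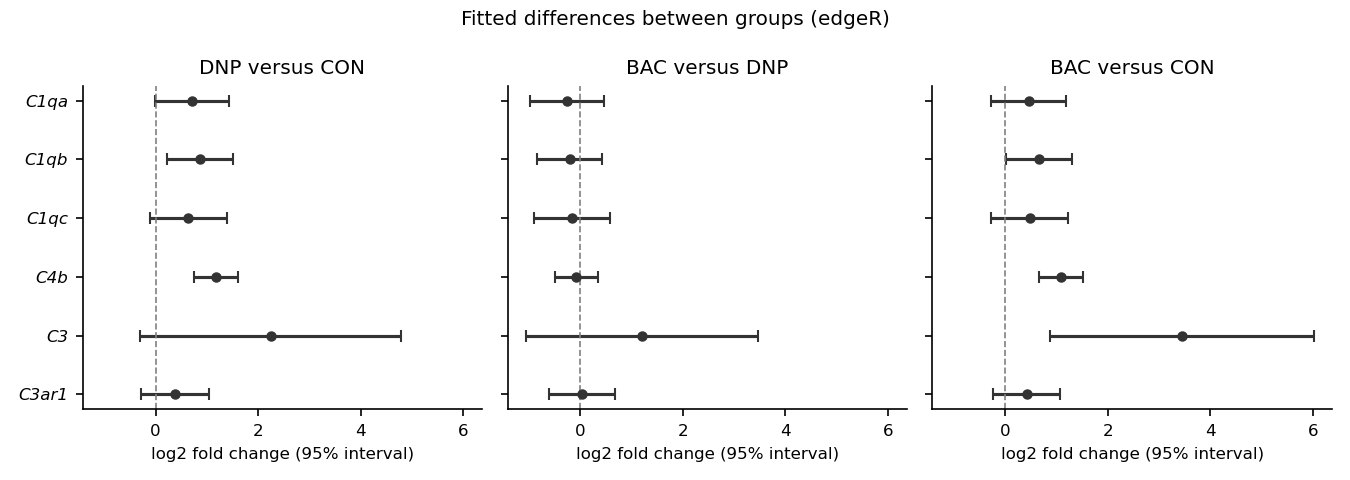
Fitted log2 fold change (x axis, points) with its 95% interval (lines) for the 6 tested genes in the 3 pairwise comparisons (panels), from edgeR. C4b lies at 1.17, -0.08 and 1.09, C3 has the widest intervals, and every interval in BAC versus DNP spans 0.

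Of 63 further genes in 6 lists by role, all in the table, 42 were tested. One list holds 8 synaptic ligands, 7 of them tested, that share the C1q domain but are not complement components. None passed the adjusted threshold in edgeR or limma in any comparison, and DESeq2 passed Lrp1 alone, in DNP versus CON and in both diabetic groups versus CON. At an unadjusted p under 0.05 in edgeR, 1 was higher and 2 were lower in DNP versus CON, 2 were higher and 0 lower in BAC versus DNP, 2 higher and 3 lower in BAC versus CON, and 3 higher and 3 lower in both diabetic groups versus CON. In either direction these are 7.14%, 4.76%, 11.9% and 14.3% of the 42, against 11.2%, 2.37%, 7.76% and 11.8% of all tested genes in the same order of comparisons. Synaptic ligands of the C1q-domain list made up 1 of the 2 higher genes in BAC versus CON (C1ql1). They made up 2 of the 3 higher genes in both diabetic groups versus CON (C1ql1 and Cbln2). The median log2 difference of the 42 was 0.06 in DNP versus CON and -0.02 in BAC versus DNP.

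Of 16 genes of classical and lectin initiation, 8 were tested. The C1 proteases sat beside C1q without its pattern: C1ra, which cleaves C1s, was at 2.91, 1.49 and 3.30 CPM in CON, 1.08, 2.11 and 5.24 CPM in DNP and 1.59, 1.31 and 0.314 CPM in BAC. C2, which joins C4b in the C3 convertase, was at 2.72, 2.92 and 2.45 CPM in CON, 2.67, 1.70 and 1.64 CPM in DNP and 3.26, 3.72 and 2.64 CPM in BAC, and BAC versus DNP was 0.68 (SE 0.28, unadjusted p 0.0403 in edgeR). Colec12, a scavenger receptor of the collectin family, was at 6.76, 16.4 and 10.7 CPM in CON, 6.58, 6.47 and 4.13 CPM in DNP and 12.8, 12.1 and 12.3 CPM in BAC. It was the only gene of these lists at an unadjusted p under 0.05 in edgeR in both DNP versus CON (-0.98, p 0.0163) and BAC versus DNP (1.11, p 0.00856), with adjusted p of 0.365 and 0.998. The 9 markers of meninges and fibroblasts, where Colec12 is also made, had lower values in DNP than in CON in 9 of 9. They had higher values in BAC than in DNP in 9 of 9. Of all tested genes, 51.4% had higher values in DNP than in CON and 48.1% had higher values in BAC than in DNP. The part of meninges and fibroblasts in the Colec12 values was not tested. Mbl1, a mannose-binding lectin of liver, had no count in any library.

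In the alternative pathway Cfp, which encodes properdin, and Cfb, the protease of the alternative C3 convertase, were tested, and neither was at an unadjusted p under 0.05 in edgeR in any comparison. Cfp held 181, 352 and 182 counts in CON, 130, 260 and 210 in DNP and 193, 176 and 155 in BAC. Of the 7 terminal components, which build the membrane attack complex, C7 and C8g were tested and neither was at that level. The precursor of C5a, encoded by Hc, held 0 to 10 counts.

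Of the 9 other receptors, 6 were tested. Itgb2 was at 4.57, 3.06 and 4.42 CPM in CON, 6.29, 5.72 and 5.64 CPM in DNP and 5.29, 5.17 and 6.66 CPM in BAC, with all diabetic libraries above CON, and DNP versus CON was 0.55 (SE 0.23, unadjusted p 0.0409 in edgeR). Its partner in complement receptor 3, Itgam, was at 21.4, 6.76 and 20.1 CPM in CON, 17.1, 20.4 and 16.2 CPM in DNP and 9.86, 18.7 and 10.5 CPM in BAC, with overlap of all groups. Lrp1, a large endocytic receptor that takes up C1q-tagged cargo among many ligands, was at 1023, 1189.9 and 1045 CPM in CON, 692, 609 and 560 CPM in DNP and 900.2, 669 and 779 CPM in BAC. DNP versus CON was -0.81 (SE 0.17), with an unadjusted p of 0.00106 and an adjusted p of 0.294 in edgeR. The chains of complement receptor 3 and Lrp1 thus did not share a direction.

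Of 20 regulators, 17 were tested, and neither DNP against CON nor BAC against DNP had one at an unadjusted p under 0.05 in edgeR. Sez6l, a neuronal membrane protein with complement-control domains, was lower in BAC versus CON (-0.65, SE 0.27, unadjusted p 0.0406 in edgeR). Cd59a, which blocks the membrane attack complex, was at 6.95, 8.25 and 5.75 CPM in CON, 27.5, 6.40 and 9.37 CPM in DNP and 16.1, 5.44 and 19.5 CPM in BAC. Its 3 highest libraries are the 3 with high C3 and with brainstem and spinal cord markers. Clu, an abundant inhibitor of the terminal complex made by astrocytes, was at 406 to 663 CPM in CON, 506 to 677 CPM in DNP and 505 to 724 CPM in BAC, with a DNP versus CON value of 0.06 (SE 0.23).

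**Figure D5:**
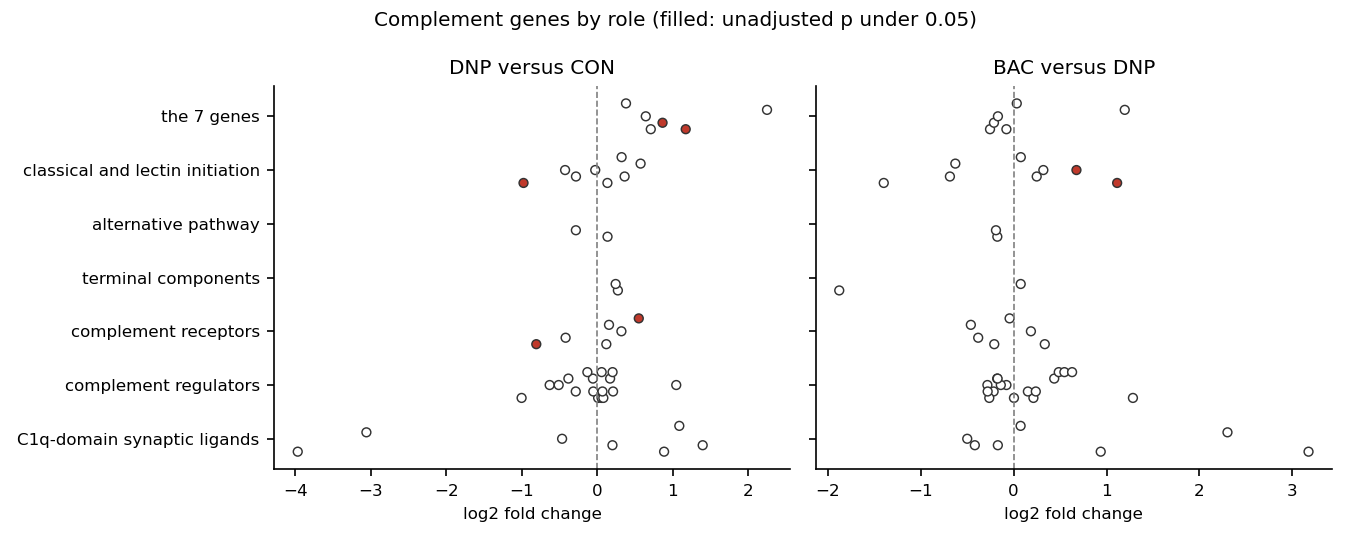
Fitted log2 fold change (x axis) of each tested complement gene or C1q-domain synaptic ligand (point) by role (rows) in DNP against CON and in BAC against DNP. Filled points have an unadjusted p under 0.05 in edgeR and none passed after adjustment. The 6 tested genes of the top row lie above 0 in DNP versus CON, while the other roles spread to both sides.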

How the data were processed

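Poly(A) RNA from whole brain was sequenced in paired-end libraries without strand information (CON, DNP and BAC, 3 mice each), and groups came from the sample labels. Per the labels and methods, the authors used FastQC 0.11.9, fastp, HISAT2 2.1.0 on GRCm38, Bowtie2 2.3.4.1 and StringTie 1.3.3b. The deposited data are 2 tables, with raw gene counts and with FPKM. The FPKM values of the authors equal count over a gene length and library total, with no TMM factor. How multi-mapped reads were counted is not given in the sources used here.

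In R 4.3.3, filterByExpr (minimum count 10) selected the genes to test, and the 9 libraries were fitted together with edgeR 4.0.16 (TMM, quasi-likelihood test, Benjamini-Hochberg adjustment over all tested genes, threshold 0.05). The study's tool, DESeq2 1.42.0, and limma 3.58.1 on log2(FPKM + 1) and log2(FPKM + 0.1) were alternatives, beside other normalizations and filters, only the groups compared, a replicate block, C4a added to C4b and each library left out. The scripts were tested on simulated data. Profiles were compared on log2 CPM with a prior count of 2.

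The members, the 6 pathway lists and the 13 marker lists were chosen with earlier results of these data known. Genes named are the 7 members, genes of these lists and the 3 nearest profiles of each member. Some genes that this rule names are not reported here. Libraries left out for their cerebellar or hindbrain markers, and the covariates, were chosen after seeing the data. Libraries of the same group differed by far more than counting error (chi-square per degree of freedom of 15.7 to 121.8), so none was counted as a repeat. The p-values measure the spread between mice, and 3 mice per group limit the precision.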

Additional observations from a re-analysis of the deposited data

How the results depend on the processing

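Of 447 log2 fold changes recomputed under an alternative, 417 kept their direction and their side of the threshold. Of the rest, 27 changed sign and 3 passed the threshold that they had missed. Those 3 were the C4b values with DESeq2 in DNP versus CON, in BAC versus CON and in both diabetic groups versus CON. The count of members passing the threshold was thus 1 (C4b) there, against 0 in edgeR. Over all genes DESeq2 passed 342, 7, 100 and 364 genes in DNP against CON, BAC against DNP, BAC against CON and both diabetic groups versus CON, against 0 each in edgeR, and leaving out 1 CON library passed at most 1 gene.

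With cerebellar and hindbrain scores as covariates, DNP versus CON was -0.35 for C1qa, -0.0311 for C1qb, -0.42 for C1qc and -0.32 for C3ar1, BAC versus CON was -0.44, -0.0678, -0.37 and -0.32, and both diabetic groups versus CON was -0.40, -0.0495, -0.40 and -0.32. In that fit C3 was -0.0597 in BAC versus CON, -0.25 in BAC versus DNP, 0.19 in DNP versus CON and 0.0658 in both diabetic groups versus CON, and C1qc was 0.0472 in BAC versus DNP. Without the 3 libraries rich in hindbrain, BAC versus DNP was 0.0789 for C1qa, 0.0849 for C1qb, 0.12 for C1qc, -1.36 for C3 and -0.10 for C3ar1, and BAC versus CON was -0.41 for C3. Without the 2 rich in cerebellum, BAC versus DNP was 0.0149 for C1qc. With 1 library left out in turn, BAC versus DNP ranged from -0.36 to 0.0123 for C1qc, from -0.0891 to 0.12 for C3ar1 and from -0.19 to 0.0132 for C4b. The cause of these changes was not tested. C4b kept its direction in every alternative against CON, from 0.62 to 1.25 in DNP versus CON and from 0.49 to 1.18 in BAC versus CON.

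Same-numbered mice did not deviate together as a rule: 3 of 9 pairs had a correlation over 0.1, and all 9 ranged from -0.58 to 0.56. DNP and BAC correlated at 0.50 for replicate 1 and at 0.56 for replicate 2. Pairs with different numbers ranged from -0.70 to 0.61, so these correlations cannot decide whether the numbers mark pairs. With the replicate block C4b was 1.18 in DNP versus CON (SE 0.14, adjusted p 0.464 in edgeR), and the block passed 0 genes.

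Depth limits C5ar1, C3ar1 and C3 outside its 3 high libraries, where 1 count moves a level visibly.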

Other observations

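The 8 genes of secreted synaptic proteins with a C1q domain, C1ql1 to C1ql4 and Cbln1 to Cbln4, share a fold with C1q but act as synaptic organizers. C1ql1, which climbing fibres of the inferior olive present to Purkinje cells, was at 9.07, 6.40 and 7.71 CPM in CON, 19.2, 15.1 and 8.59 CPM in DNP and 11.7, 23.3 and 47.0 CPM in BAC. Of the 6 diabetic libraries 5 were above all CON libraries and DNP replicate 3 lay within them, and both diabetic groups versus CON gave 1.35 (SE 0.44, unadjusted p 0.0145 and adjusted p 0.342 in edgeR). Cbln2 gave 1.12 (SE 0.47, unadjusted p 0.0418 in edgeR) in that comparison.

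Cbln3, a gene of cerebellar granule cells, held 139, 20658 and 2641 counts in CON, 1462, 3 and 8 counts in DNP and 10479, 7 and 3174 counts in BAC. C1ql4 held at most 1 count in CON, 37, 1 and 0 counts in DNP and 7, 0 and 68 counts in BAC, so its 3 libraries above 1 count are those with brainstem and spinal cord markers.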
